A study of Mus musculus with 203 samples.

Results

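Neurofilaments and microtubules are the load-bearing polymers of the axon, and 10 of the genes that build or regulate them were described in single neurons of the mouse nucleus ambiguus (Amb), the brainstem nucleus that holds vagal motor neurons of the heart and larynx. The genes were *Nefl*, *Nefm*, *Nefh*, *Ina*, *Prph*, *Tuba1a*, *Tubb3*, *Map1b*, *Mapt* and *Stmn2*, chosen by name from the 24029 genes of the count table. All 10 passed the minimum of a mean of 0.1 counts per 10000 over all neurons. Wild-type C57BL/6 mice (C57BL/6NCrl in the study's methods) received the fluorescent retrograde tracer cholera toxin B at postnatal day 1, and labeled somata were aspirated from brainstem slices at postnatal days 2 to 4 and sequenced one by one by Smart-seq2, which amplifies full-length cDNA by PCR. The tracer was placed in the pericardial space to label AmbCardiac neurons, and in the cricothyroid muscle of the larynx to label AmbLaryngeal neurons. The authors split the AmbCardiac neurons by clustering into 2 types named ACP and ACV. By the deposited annotation there were 53 ACP, 98 ACV and 52 AmbLaryngeal neurons, named Larynx below, and all shared strain, age range, tracer and method. No label names the mouse or library plate of a neuron, so the neurons of a type were treated as 1 sample, and every difference below is a description of these neurons with no test.

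A neurofilament is a mixed polymer. The light chain (*Nefl*) forms its core, the medium and heavy chains (*Nefm*, *Nefh*) carry long side arms that space neighboring filaments, and alpha-internexin (*Ina*) and peripherin (*Prph*) assemble into the same polymer. Peripherin is best known from neurons whose axons leave the central nervous system, as those of Amb do, and the heavy chain is known to accumulate late, as axons mature and widen. Microtubules are polymers of alpha- and beta-tubulin (here *Tuba1a* and the neuronal *Tubb3*), bound and stabilized by Map1b and tau (*Mapt*), while stathmin-2 (*Stmn2*) binds tubulin dimers and is abundant in growing axons.

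Positions of the genes are those of GENCODE vM21 on GRCm38 (mm10). *Nefl* (chr14:68083863-68089095, plus strand) and *Nefm* (chr14:68082590-68124846, minus strand) are neighbors whose annotated exons share 1108 bases on opposite strands. The sources used here do not say whether strand was used in counting, so reads of this stretch cannot be assigned with certainty to either gene. *Ina* (chr19:47014698-47025327, plus strand) likewise shares 456 exonic bases with *Nt5c2* on the other strand. *Prph* (chr15:99055174-99058978, plus strand) lies close to *Tuba1a* (chr15:98949837-98953703, minus strand), whose near-identical relatives *Tuba1b* and *Tuba1c* are on the same chromosome. *Nefh* is at chr11:4938754-4948064 (minus strand), *Tubb3* at chr8:123411424-123422015 (plus strand) and *Map1b* at chr13:99421446-99516540 (minus strand). *Mapt* is at chr11:104231390-104332090 and *Stmn2* at chr3:8509360-8561606, both on the plus strand. All are protein coding, and exons merged over transcripts spanned 1803 bases in *Tuba1a* and 15846 bases in *Map1b*, the extremes of the 10.

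Promoter sequences from RefSeq (GRCm38.p6) matched 5 of the 10 genes, namely *Ina*, *Prph*, *Tuba1a*, *Tubb3* and *Map1b*. Those of *Prph* and *Ina* are shown, as both genes encode partners of the neurofilament chains and their levels differed in opposite directions between ACP and ACV neurons. Each is the 250 bases before the RefSeq gene start, on the gene's strand (chr15:99054924-99055173 for *Prph*, chr19:47014431-47014680 for *Ina*), with TATAAA and GGGCGG in capitals on either strand (reverse letters TTTATA and CCGCCC).
Prph: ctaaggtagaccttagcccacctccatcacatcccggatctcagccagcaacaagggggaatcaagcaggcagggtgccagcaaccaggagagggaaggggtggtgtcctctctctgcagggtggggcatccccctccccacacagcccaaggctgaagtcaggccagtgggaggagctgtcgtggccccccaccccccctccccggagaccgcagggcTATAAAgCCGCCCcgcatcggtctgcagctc
Ina: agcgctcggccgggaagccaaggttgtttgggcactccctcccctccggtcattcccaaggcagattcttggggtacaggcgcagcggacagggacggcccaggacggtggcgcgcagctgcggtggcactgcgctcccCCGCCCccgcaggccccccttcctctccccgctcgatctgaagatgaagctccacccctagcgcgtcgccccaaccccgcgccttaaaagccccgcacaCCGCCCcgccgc
The *Prph* window held TATAAA, starting 31 bases before the gene start, with CCGCCC 1 base after it. In the *Ina* window CCGCCC occurred at 2 places and TATAAA did not occur. Of 32851 promoter windows of this length, 12.4% held TATAAA and 32.7% held GGGCGG on either strand. The GC content was 65.2% for *Prph* and 70.8% for *Ina*, against a median of 52.4% over all windows. These letters are a description of the windows and carry no measurement of binding.

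Levels are given as counts per 10000 counts of a neuron after leaving out *Rn45s*, the 45S pre-ribosomal RNA, which took 36.997% of the counts in ACP, 38.5% in ACV and 58.2% in Larynx neurons (means). The remaining counts had medians of 1115380 (ACP), 1120510 (ACV) and 560892 (Larynx) per neuron and were lowest in a Larynx neuron, at 118492. Markers of the types were highest in the type they mark, but several were also detected in other types. *Slc18a3*, the vesicular acetylcholine transporter, was detected in all neurons, and *Calca*, a marker of laryngeal motor neurons, averaged 20.95 counts per 10000 in Larynx neurons against 0.528 in ACP and 0.228 in ACV. *Ghsr* and *Htr3b*, which mark ACV, had no read in any ACP neuron. *Bche*, also an ACV marker, was detected in 43.4% of ACP neurons, at a mean of 0.146 against 0.994 in ACV. The ACP markers *Calb1*, *Trhr* and *Tacr3* averaged 1.76, 1.58 and 0.838 in ACP neurons. They averaged 0.388, 0.0482 and 0.00597 in ACV, and 0.299, 0.206 and 0.609 in Larynx. *Calb1* was detected in 44.9% of ACV and 44.2% of Larynx neurons, and *Tacr3* in 51.9% of Larynx neurons. A sum of 20 glial and vascular genes had medians of 5.21, 4.41 and 4.56 counts per 10000 in ACP, ACV and Larynx, with highest values of 72.5, 161.4 and 48.8, and *Opalin* and *Flt1* of this list were at 0 in ACP neurons.

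A set of AmbCardiac neurons stood apart in an alpha-tubulin relative of *Tuba1a*. Reads of *Tuba1c* per 100 reads of *Tuba1a* were at most 0.640 in 120 neurons and at least 1.04 in the other 83, with no neuron between these values, and the ratio of *Tuba1c* to *Tuba1b* separated the same neurons. The 83 neurons over a limit of 0.8, named Tuba1c-high below, were 20 ACP and 63 ACV neurons, while 33 ACP, 35 ACV and all 52 Larynx neurons were Tuba1c-low. *Slc7a11* and *H2-T10*, which are not tubulin genes, were detected more often in Tuba1c-high neurons, though neither split the sets completely. *Slc7a11*, a cystine transporter, was detected in 20 of 20 and 61 of 63 Tuba1c-high ACP and ACV neurons but in 9 of 33, 11 of 35 and 14 of 52 Tuba1c-low ACP, ACV and Larynx neurons, and *H2-T10*, a histocompatibility gene, in 15 of 20 and 41 of 63 against 0 of 33, 1 of 35 and 2 of 52. The labels give nothing that marks these neurons, and what sets them apart was not tested. The limit, *Slc7a11* and *H2-T10* were all chosen after the data were seen, so the detection of these genes is no separate support for the sets. Since no Larynx neuron was Tuba1c-high, comparisons with Larynx are also given for Tuba1c-low neurons alone, and ACP against ACV within each set.

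*Nefh*, the heavy chain, had the largest ratio of mean levels among the 10 genes for ACP over ACV and for Larynx over ACV, while *Nefm* had the largest for Larynx over ACP. Its level was 3.39 ± 2.65 (SD, n = 53) counts per 10000 in ACP, 1.796 ± 1.96 (SD, n = 98) in ACV and 8.28 ± 5.46 (SD, n = 52) in Larynx neurons. In ACP neurons the lowest value was 0, the median 2.62 and the highest 13.7. In ACV neurons these were 0, 1.15 and 9.55, and in Larynx neurons 0.674, 7.26 and 20.4. All ranges overlapped, yet 96.2% of Larynx neurons lay above the ACV median and 83.02% of ACP neurons did so. Counts pooled over each type gave 3.30 (exact 95% Poisson interval 3.26 to 3.35), 1.61 (1.58 to 1.63) and 8.39 (8.29 to 8.49) counts per 10000, and such intervals cover counting error only, as PCR reads without molecular identifiers are not independent molecules. The ratio of mean levels was 4.61-fold for Larynx over ACV (log2 ratio of ACV over Larynx -2.21), 2.44-fold for Larynx over ACP (-1.29) and 1.89-fold for ACP over ACV (0.92). The difference between ACV and Larynx exceeded the larger SD of the pair, while that between ACP and ACV did not. Drawing 1 neuron from each type, the Larynx neuron was the higher in 89.97% of all pairs with an ACV neuron and in 78.8% of those with an ACP neuron, and the ACP neuron was higher than the ACV neuron in 73.4%. The order Larynx, ACP, ACV was also present among Tuba1c-low neurons. Among Tuba1c-high neurons, which included no Larynx neuron, ACP was above ACV. Tuba1c-low neurons had mean *Nefh* levels of 8.28 (Larynx), 3.94 (ACP) and 2.30 (ACV), and Tuba1c-high neurons had 2.47 (ACP) and 1.52 (ACV).

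**Figure D1:**
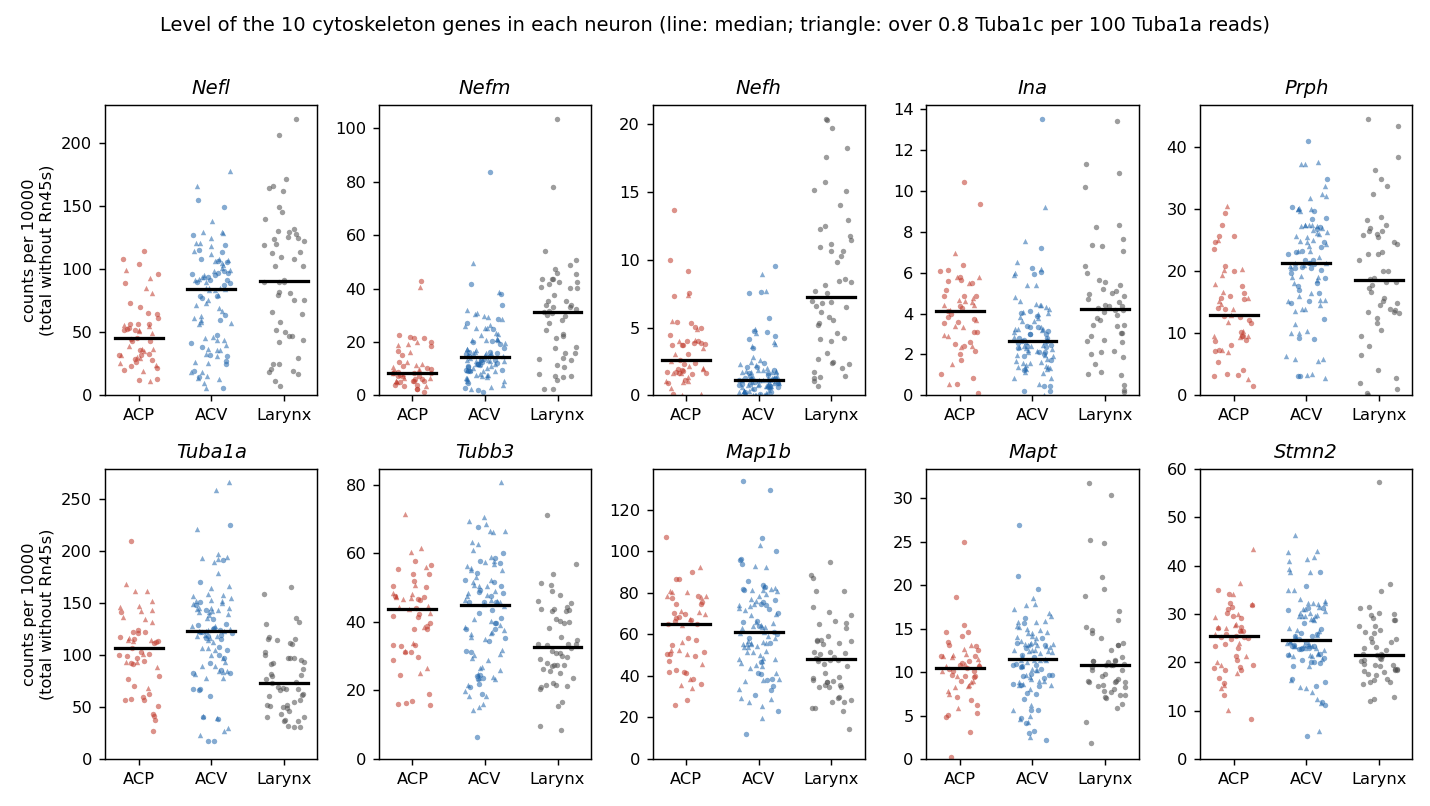
Each panel plots 1 gene, each point 1 neuron, in counts per 10000 of the total without *Rn45s* on a linear axis that starts at 0, with 53 ACP, 98 ACV and 52 Larynx neurons. Lines are medians and triangles are Tuba1c-high neurons. *Nefh* medians were 2.62, 1.15 and 7.26 in ACP, ACV and Larynx, and those of *Stmn2* lay between 21.5 and 25.4.

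*Nefm*, the medium chain, was highest in Larynx neurons as well, at 30.7 ± 18.8 (SD, n = 52) counts per 10000 against 16.8 ± 11.5 (SD, n = 98) in ACV and 11.2 ± 8.40 (SD, n = 53) in ACP. The lowest, median and highest values were 2.27, 31.4 and 103.6 in Larynx, 1.25, 14.4 and 83.7 in ACV, and 1.42, 8.43 and 42.7 in ACP. Most Larynx neurons thus lay above the cardiac medians, and 3.77% of ACP and 7.14% of ACV neurons lay above the Larynx median. Larynx neurons were 2.73-fold above ACP, a difference larger than the larger SD, and 1.83-fold above ACV, a difference smaller than it. ACP and ACV differed by 1.496-fold, just short of the 1.5-fold limit used below, while *Prph* at 1.52-fold was just past it. For *Nefm* the ACV neuron was the higher in 69.1% of pairs of neurons. In Tuba1c-low neurons the Larynx level was 2.82-fold that of ACP and 1.74-fold that of ACV. ACV exceeded ACP by 1.62-fold in Tuba1c-low and by 1.39-fold in Tuba1c-high neurons.

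*Nefl*, the light chain and core subunit, was the most abundant of the 5 intermediate filament genes per kilobase of exon in all types. It stood at 92.8 ± 51.7 (SD, n = 52) counts per 10000 in Larynx, 77.2 ± 39.04 (SD, n = 98) in ACV and 49.9 ± 26.3 (SD, n = 53) in ACP neurons. Values ran from 7.02 through a median of 90.4 to 219.2 in Larynx, from 5.81 through 84.5 to 177.4 in ACV, and from 10.96 through 45.6 to 114.2 in ACP. ACP neurons formed the low group, since 15.1% of them exceeded the ACV median and 11.3% the Larynx median. The ACV level was 1.55-fold and the Larynx level 1.86-fold that of ACP, each difference below the larger SD, and Larynx was 1.20-fold above ACV, a direction that turned when counts were scaled by the full total with *Rn45s* (log2 ratio of ACV over Larynx -0.26, then 0.24). The ACP to ACV difference was 1.53-fold in Tuba1c-low and 1.62-fold in Tuba1c-high neurons. *Nefl* and *Nefh* therefore put the cardiac types in opposite orders, with *Nefl* higher in ACV and *Nefh* higher in ACP, within either set.

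Among the partner subunits, *Prph*, which encodes peripherin, was lowest in ACP neurons. Its level was 13.9 ± 7.29 (SD, n = 53) counts per 10000 in ACP, 21.1 ± 8.51 (SD, n = 98) in ACV and 19.4 ± 10.7 (SD, n = 52) in Larynx. Lowest, median and highest values were 1.56, 12.97 and 30.5 in ACP, 2.81, 21.4 and 41.02 in ACV, and 0, 18.5 and 44.5 in Larynx. ACV was 1.52-fold above ACP (higher in 74.4% of pairs), a ratio of 1.54 in Tuba1c-low and 1.47 in Tuba1c-high neurons, and ACV and Larynx were 1.09-fold apart. *Ina*, which encodes alpha-internexin, had means of 4.02 ± 2.02 (SD, n = 53) in ACP, 3.08 ± 2.03 (SD, n = 98) in ACV and 4.56 ± 2.84 (SD, n = 52) in Larynx. Its medians of 4.10, 2.64 and 4.22 placed ACV lowest. No ratio of means reached 1.5-fold, the largest being Larynx over ACV at 1.48-fold, and no difference reached the larger SD. Ratios of medians did pass 1.5-fold, with log2 ratios of 0.64 for ACP over ACV and -0.68 for ACV over Larynx.

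The alpha-tubulin gene *Tuba1a* followed another order, ACV, ACP, Larynx. Its level was 121.98 ± 48.4 (SD, n = 98) counts per 10000 in ACV, 104.7 ± 37.6 (SD, n = 53) in ACP and 78.7 ± 33.4 (SD, n = 52) in Larynx neurons. Values ran from 17.5 through a median of 123.2 to 267.0 in ACV, from 26.7 through 106.7 to 209.7 in ACP, and from 30.8 through 73.5 to 165.4 in Larynx. The groups overlapped over most of their range, and 9.62% of Larynx neurons exceeded the ACV median. ACV was 1.55-fold above Larynx and ACP was 1.33-fold above it, both below the larger SD. In Tuba1c-low neurons these ratios were 1.37 and 1.16, with means of 107.6 (ACV), 91.5 (ACP) and 78.7 (Larynx), so that *Tuba1a* no longer passed 1.5-fold. Tuba1c-high neurons had means of 129.98 (ACV) and 126.6 (ACP). As no Larynx neuron was Tuba1c-high, this set and the target of the neurons cannot be told apart in the values over all neurons. Reads of *Tuba1a*, *Tuba1b* and *Tuba1c* can be exchanged between these near-identical genes in counting. Their sum gave a log2 ratio of ACV over Larynx of 0.61, where *Tuba1a* alone gave 0.63. An annotated gene, *Gm49450*, shares 473 exonic bases with *Tuba1a* on the same strand and is not among the symbols of the count table used here.

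*Tubb3*, the neuronal beta-tubulin, was 41.3 ± 12.7 (SD, n = 53) counts per 10000 in ACP, 42.4 ± 15.5 (SD, n = 98) in ACV and 34.01 ± 12.4 (SD, n = 52) in Larynx neurons. *Map1b*, the microtubule-associated protein of growing axons, was 61.98 ± 18.1 (SD, n = 53), 62.5 ± 22.3 (SD, n = 98) and 49.3 ± 18.3 (SD, n = 52). For both genes the cardiac types differed by at most 1.03-fold and were 1.21- to 1.27-fold above Larynx, with an ACP or ACV neuron higher in 66.2% to 69.3% of pairs. *Mapt*, which encodes tau, had means of 10.4 ± 3.81 (SD, n = 53), 11.4 ± 4.202 (SD, n = 98) and 12.1 ± 5.99 (SD, n = 52) in ACP, ACV and Larynx, and *Stmn2* had 24.8 ± 6.89 (SD, n = 53), 25.8 ± 8.02 (SD, n = 98) and 23.1 ± 7.46 (SD, n = 52). These 2 genes varied by at most 1.16-fold between types, and *Stmn2* had the smallest coefficient of variation of the 10 genes in every type, 27.8% in ACP, 31.1% in ACV and 32.3% in Larynx. That of *Nefh* was the largest in every type, 78.3%, 109.2% and 65.9%.

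The members were counted against the whole table with a limit of 1.5-fold between mean levels. From ACP to ACV, 1 of 10 members was higher in ACP (*Nefh*) and 2 were higher in ACV (*Nefl* and *Prph*), where 24.4% of 9782 genes passed the limit in either direction, 14% with ACP higher and 10.4% with ACV higher. Between ACP and Larynx, 3 members were higher in Larynx (*Nefl*, *Nefm* and *Nefh*) and none in ACP, where 33.2% of all genes passed, 17.5% with Larynx higher and 15.7% with ACP higher. Between ACV and Larynx, *Nefm* and *Nefh* were higher in Larynx and *Tuba1a* in ACV, against 36.4% of all genes, 20.4% with Larynx higher and 16% with ACV higher. With the AmbCardiac neurons pooled, *Nefm* and *Nefh* were higher in Larynx, against 31.8% of all genes, 16.9% in that direction. Shares of 2 or 3 in 10 are near these backgrounds and are not a result about the genes as a group. The background depends on the measure, and was 1.17% to 2.38% for ratios of geometric means with 1 added to each level. The median log2 ratio of the 5 intermediate filament genes was -0.89 for ACP over Larynx and -0.57 for ACV over Larynx. For *Tuba1a*, *Tubb3*, *Map1b*, *Mapt* and *Stmn2* together it was 0.28 and 0.32, and over all genes it was -0.01 in both comparisons. Scaled by the full total with *Rn45s*, the median over all genes stood at 0.60 for ACP over Larynx and 0.54 for ACV over Larynx. *Nefh* then had log2 ratios of -0.77 and -1.77, and *Nefm* -0.91 and -0.39, so that *Nefm* no longer passed 1.5-fold for ACV over Larynx. *Nefl* stood at -0.40 for ACP over Larynx and no longer passed it either, while *Ina*, *Prph* and *Mapt* (ACP over Larynx) and *Nefl* and *Mapt* (ACV over Larynx) changed sign, all to values below these medians. These comparisons share the Larynx neurons, and ACP and ACV were defined by the authors from these same counts.

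**Figure D2:**
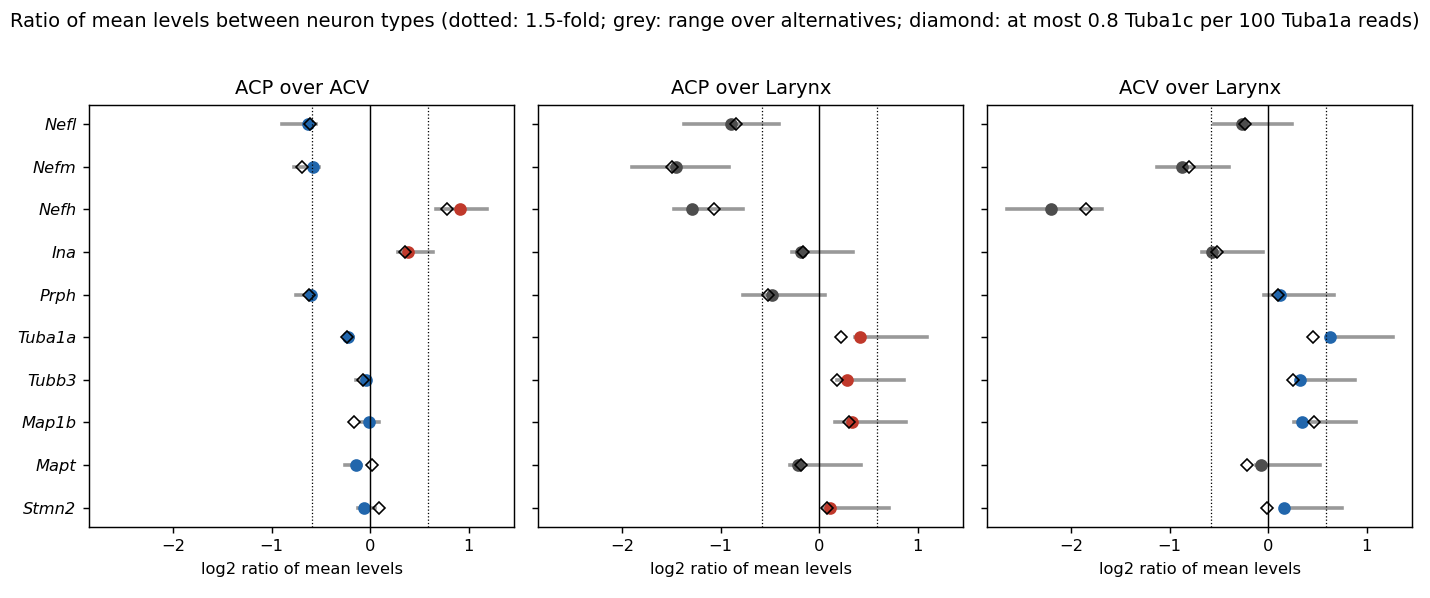
The x axis gives the log2 ratio of mean levels for each of the 10 genes in 3 comparisons, with dots colored by the type that was higher (red ACP, blue ACV, dark grey Larynx). Grey bars span 10 alternative settings, dotted lines mark 1.5-fold and diamonds use Tuba1c-low neurons. *Nefh* stood at 0.92, -1.29 and -2.21, and the *Tuba1a* diamond for ACV over Larynx fell inside the dotted line, at 0.45.

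The mean composition of the filament reads differed as well as their mean amount. The 5 intermediate filament genes took 0.824% ± 0.391 (SD, n = 53) of the counts without *Rn45s* in ACP, 1.20% ± 0.516 (SD, n = 98) in ACV and 1.56% ± 0.733 (SD, n = 52) in Larynx neurons. Within this sum *Nefl* made up 59.5% ± 9.77 in ACP, 61.6% ± 12.3 in ACV and 57.5% ± 10.7 in Larynx (SD over neurons), differences far below the SD. *Nefh* made up 4.39% ± 3.36 in ACP, 1.74% ± 2.09 in ACV and 5.72% ± 3.33 in Larynx. ACV neurons thus had the smallest heavy-chain share, and the Tuba1c-low neurons alone gave the same order, with 5.20% in ACP, 2.08% in ACV and 5.72% in Larynx. *Nefm* made up 13.3% ± 6.26, 14.6% ± 8.004 and 19.97% ± 8.003, and *Prph* 17.2% ± 7.24, 18.9% ± 7.69 and 12.5% ± 5.70, so that the share of the medium chain was largest and that of peripherin smallest in Larynx. *Ina* made up 5.47% ± 3.06, 3.08% ± 2.49 and 4.24% ± 4.62. Of all these differences in share between types, only that of *Nefh* between ACV and Larynx exceeded the larger SD.

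Ratios between genes within a neuron do not depend on the scaling total. Reads of *Nefh* per 100 reads of *Nefm* had medians of 30.7 in ACP (quartiles 19.2 and 46.4), 8.92 in ACV (5.28 and 13.007) and 25.004 in Larynx (17.7 and 41.003). ACV neurons stood below the other types by this ratio, and ACP and Larynx neurons overlapped broadly. In Tuba1c-low neurons the medians were 34.5, 10.2 and 25.004, and in Tuba1c-high neurons 21.2 in ACP and 7.71 in ACV. Reads of *Nefh* per 100 reads of *Tuba1a* had medians of 2.62, 0.955 and 9.92, and those of *Nefl* per 100 reads of *Tuba1a* had medians of 46.5, 68.1 and 132.98 in ACP, ACV and Larynx. By these medians Larynx neurons had the most *Nefh* and the most *Nefl* reads per *Tuba1a* read. Summed filament reads were not set against summed tubulin reads. Among Tuba1c-low neurons the *Nefl* medians were 55.2, 76.8 and 132.98.

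**Figure D3:**
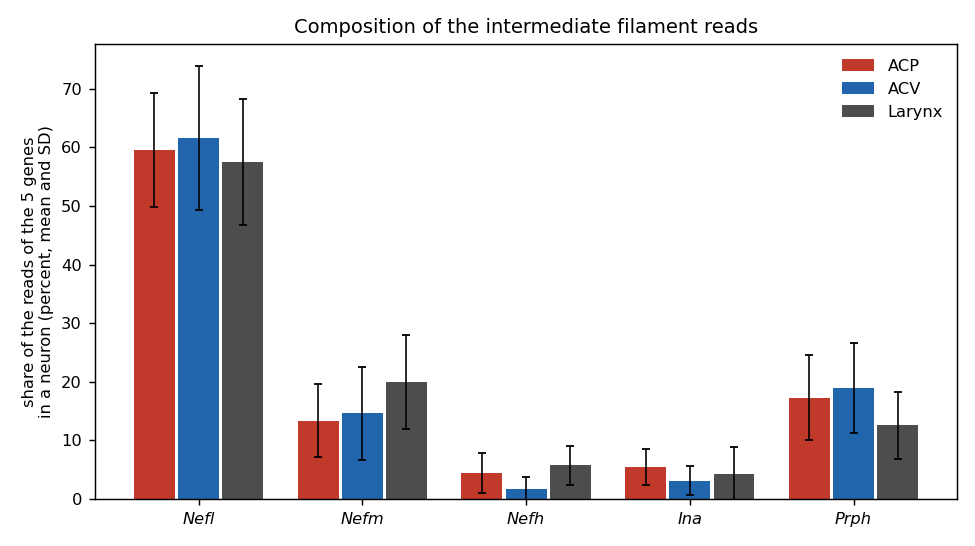
Bars give the mean share of each gene in the summed reads of *Nefl*, *Nefm*, *Nefh*, *Ina* and *Prph* of a neuron, in percent from 0, and error bars give the SD over 53 ACP, 98 ACV and 52 Larynx neurons, cut at 0. *Nefl* held 57.5% to 61.6% in all types, and *Nefh* held 1.74% in ACV against 4.39% in ACP and 5.72% in Larynx.

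Per kilobase of exon, which allows levels to be set side by side between genes, *Tuba1a* ranked first of 23510 genes in each type, with mean levels of 58.1 (ACP), 67.7 (ACV) and 43.7 (Larynx) counts per 10000 and kilobase. *Tubb3* ranked 4th, 6th and 5th. *Nefl* ranked 7th in ACP, 4th in ACV and 2nd in Larynx, at 14.8, 22.8 and 27.4 counts per 10000 and kilobase. *Prph* ranked 27th, 14th and 13th. *Nefh* shifted furthest in rank, from 662nd in ACP and 1347th in ACV to 215th in Larynx. *Ina* ranked 598th in ACV and 348th in Larynx, and *Nefm* 233rd in ACP and 43rd in Larynx. Per kilobase and on average, *Nefl* therefore exceeded *Nefm* and *Nefh* in every type, as it did in read shares.

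The levels of these genes also varied together among neurons of 1 type. Correlations are Spearman's rho over 53 ACP, 98 ACV or 52 Larynx neurons, given as a description, and all points share the scaling to a neuron's total. *Tuba1a* and *Tubb3*, whose products form the tubulin dimer, had the highest rho of the 45 pairs in ACP (0.80) and ACV (0.76), and 0.57 in Larynx. *Nefl* went with *Nefm* (0.65, 0.53 and 0.56) and with *Prph* (0.61, 0.55 and 0.62), and *Nefm* went with *Nefh* (0.41, 0.59 and 0.59). *Nefl* and *Nefm* share exonic bases, and the part of such reads in their rho, shares and ratios was not tested. All 10 pairs among the 5 filament genes were positive in every type. Tuba1c-low and Tuba1c-high neurons taken apart gave 0.75 to 0.81 for *Tuba1a* and *Tubb3* in ACP and ACV, and 0.42 to 0.72 for *Nefm* and *Nefh*.

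*Nefh* and *Tuba1a* went in opposite directions within each type, with rho of -0.40 in ACP, -0.36 in ACV and -0.53 in Larynx, the lowest of the 45 pairs in all types. The sets taken apart gave -0.43 and -0.29 for Tuba1c-low and Tuba1c-high ACP neurons, and -0.46 and -0.24 for ACV. Scaled by the full total with *Rn45s*, however, rho was -0.20 in ACP, -0.18 in ACV and -0.05 in Larynx, so the size of this relation rests on the scaling. Scaled by a total that left out the 10 genes themselves it was -0.38, -0.33 and -0.52. Pairs between filament and tubulin-related genes were mixed, with 19 of 25 positive in ACP, 21 in ACV and 12 in Larynx.

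**Figure D4:**
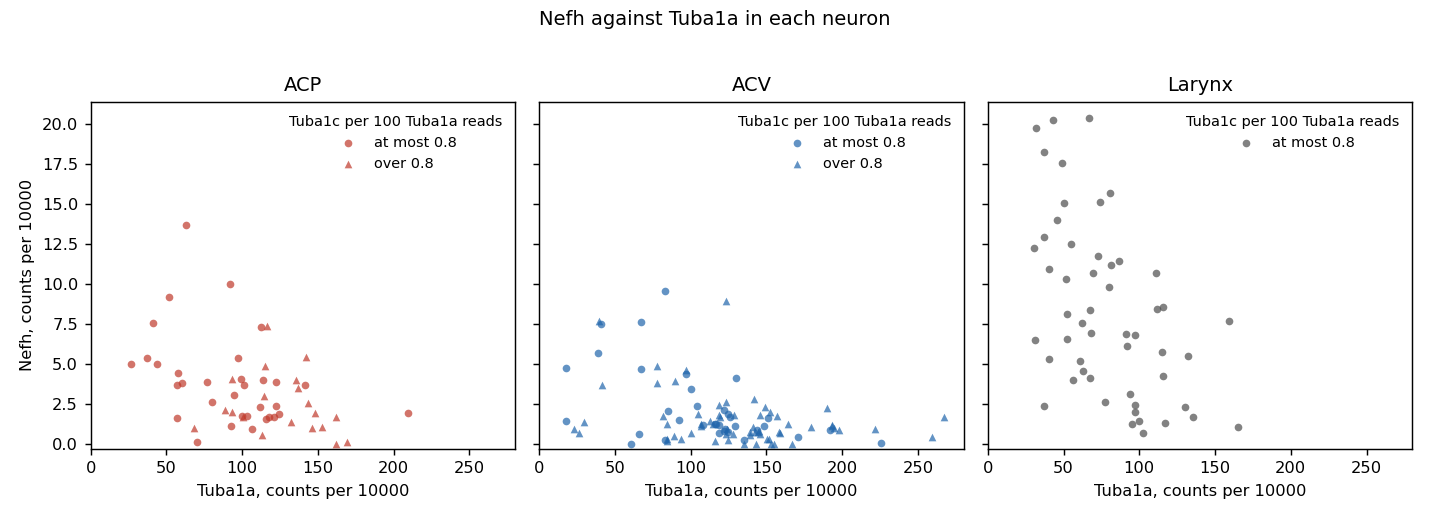
Each point is 1 neuron, with its *Tuba1a* level on the x axis and its *Nefh* level on the y axis, both in counts per 10000 of the total without *Rn45s* on linear axes, and triangles for Tuba1c-high neurons. High *Nefh* values fell mostly at low *Tuba1a* values (rho -0.40 in ACP, -0.36 in ACV and -0.53 in Larynx).

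**Figure D5:**
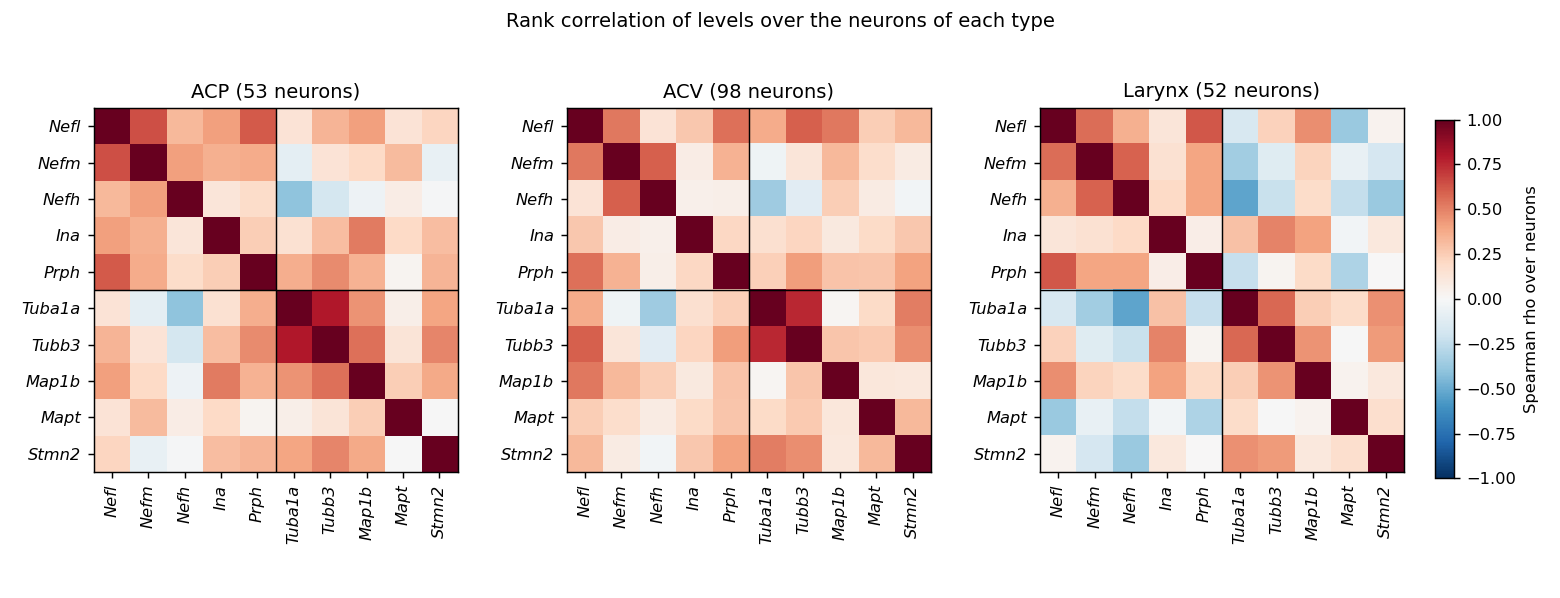
Colors give Spearman's rho between the levels of each pair of the 10 genes over the neurons of a type, from -1 (blue) to 1 (red), and black lines separate the 5 intermediate filament genes from the 5 tubulin-related genes. The upper left block is positive throughout, and the *Nefh* and *Tuba1a* cell is the bluest in each type.

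Depth and glial transcripts moved with some of these levels. *Nefl* had rho of 0.35, 0.59 and 0.37 with the counts outside *Rn45s* in ACP, ACV and Larynx neurons, and -0.28, -0.41 and -0.48 with the summed glial and vascular genes. *Prph* had rho of -0.48, -0.48 and -0.22 with this sum and *Tubb3* -0.37, -0.48 and -0.17, while *Nefh* had -0.19, -0.04 and -0.09 the weakest of the 5 filament genes in every type. With neurons of at most 900 *Apoe* counts alone (26 ACP, 44 ACV and 38 Larynx), 4, 3 and 3 of the 10 genes passed 1.5-fold in ACP against ACV, ACP against Larynx and ACV against Larynx, where 35.2%, 40.4% and 42.04% of all genes did so.

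Among 2271 genes with a mean of at least 1 count per 10000, the genes most like each of the 10 were taken by the mean of the rho within the 3 types. For *Tuba1a* they were *Gap43*, a growth cone protein (mean rho 0.76), and the tubulins *Tubb2a* (0.75) and *Tubb5* (0.73). *Tubb3* was nearest to *Actg1*, a cytoplasmic actin (0.72), *Tubb2a* (0.71) and *Acot7*, an acyl-CoA thioesterase (0.70). The filament genes had other neighbors. *Nefl* was nearest to *Pkm*, a pyruvate kinase (0.61), *Ndrg4* (0.60) and *Flot1* (0.58), and *Prph* to the gamma-synuclein gene *Sncg* (0.58), the galectin gene *Lgals1* (0.50) and *Anxa2*, an annexin (0.49). *Nefh* went with *Atp2b4*, a plasma membrane calcium pump (0.50), *Sptbn1*, a spectrin (0.44), and *Esyt1*, an extended synaptotagmin (0.42). *Nefm* went with *Ngfr*, the neurotrophin receptor p75 (0.43), *Calcb*, a CGRP peptide gene (0.43), and *Acly*, ATP citrate lyase (0.41). *Map1b* was nearest to *Dpysl2* (0.60), *Hspa8* (0.54) and *Pkm* (0.49), and *Stmn2* to *Tubb5* (0.50) and *Gap43* (0.49). *Mapt* was nearest to *Dpysl3* (0.44) and *Ina* to *Usp5* (0.36), the lowest leading value of the 10 genes.

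Other genes of the axonal cytoskeleton were taken as a list in 10 classes, of which all but 6 genes passed the minimum level. Between ACP and ACV, 4 were past 1.5-fold with ACP higher and 5 with ACV higher (3.74% and 4.67%, against 14% and 10.4% of all genes). Against Larynx, 6 were higher in ACP and 11 in Larynx, and 9 were higher in ACV and 13 in Larynx. These were 5.61% and 10.3% of the list for ACP against Larynx, beside 15.7% and 17.5% of all genes, and 8.41% and 12.1% for ACV against Larynx, beside 16% and 20.4%. The median log2 ratio of the list was -0.03, -0.07 and -0.04 for ACP over ACV, ACP over Larynx and ACV over Larynx. None of the 3 other stathmins, 5 collapsin response mediators or 2 actins passed the limit in any comparison. *Stmn3*, a stathmin of growing neurites, for example had means of 31.2, 31.02 and 27.9 counts per 10000 in ACP, ACV and Larynx.

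Of the 10 other tubulins over the minimum, 2 passed the limit with ACP above Larynx (*Tuba1c* and *Tubg2*) and 1 with ACV above Larynx (*Tuba1c*). Over all neurons the median log2 ratios of the 10 were 0.23 and 0.36. *Tubb2a* had means of 37.8, 41.5 and 29.3 and *Tubb5* 34.1, 37.004 and 32.9 counts per 10000 in ACP, ACV and Larynx. In Tuba1c-low neurons, log2 ratios over Larynx are given as ACP, then ACV. They were 0.21 and 0.29 for *Tubb2a*, -0.09 and 0.03 for *Tubb5*, 0.07 and 0.27 for *Tuba1b*, and 0.19 and 0.16 for *Tubb2b*. Those of *Tubb4a* were 0.41 and 0.30, of *Tubb4b* -0.23 and 0.11, of *Tuba4a* -0.77 and -0.44, and of *Tubg1* -0.42 and 0.47. *Tuba1c* had means of 1.23, 1.95 and 0.120, but 0.104, 0.0754 and 0.120 in Tuba1c-low neurons, and 3.08 and 2.99 in Tuba1c-high ACP and ACV neurons. Its ratio between types thus followed the sets, and no difference between cell types is read from it.

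Of the remaining genes with at least 1 count per 10000 in the higher type, several were past 1.5-fold in favor of Larynx. *Basp1*, a growth cone membrane protein, had means of 2.67, 2.56 and 4.67 in ACP, ACV and Larynx, and *Camsap2*, which binds microtubule minus ends, had 0.536, 0.569 and 1.16. In Tuba1c-low neurons their log2 ratios over Larynx were -0.65 and -0.93 for ACP and -0.88 and -0.80 for ACV, all past the limit. *Agtpbp1*, an enzyme that trims glutamate chains from tubulin, had 0.861 in ACP and 1.39 in Larynx. *Marcks*, a membrane-bound kinase substrate, had 1.33 in ACV and 2.35 in Larynx. In Tuba1c-low neurons *Agtpbp1* stood at -0.75 (ACP over Larynx) and *Marcks* at -0.97 (ACV over Larynx), both past the limit. The microtubule-associated proteins *Map1a* (2.97 in ACV, 4.75 in Larynx) and *Map1s* (0.692 and 1.13), and the linker *Plec* (2.00 in ACP, 3.099 in Larynx), were past the limit over all neurons but not among Tuba1c-low neurons, with log2 ratios of -0.12, -0.22 and -0.33.

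In the other direction, *Dync1i1*, a subunit of the dynein motor, had 2.74 counts per 10000 in ACV and 1.69 in Larynx, and *Pfn1*, which encodes the actin-binding profilin, had 4.05 and 2.53. Among Tuba1c-low neurons the log2 ratios of ACV over Larynx were 0.88 and 0.57, the latter just inside the limit. Between the cardiac types, *Kif21a*, a kinesin, was higher in ACV (3.84) than in ACP (2.46), with a log2 ratio of -0.64 for ACP over ACV both over all neurons and in Tuba1c-low neurons, and *Map1s* was higher in ACP (1.14 against 0.692), with a log2 ratio of 0.72 over all neurons and 0.40 in Tuba1c-low neurons, no longer past the limit. The intermediate filament genes of glia, *Vim* and *Gfap*, also passed the limit, *Vim* with Larynx above both cardiac types and *Gfap* with ACV above ACP and Larynx. *Vim* had 0.667, 0.662 and 1.35 and *Gfap* 0.418, 1.005 and 0.295 counts per 10000 in ACP, ACV and Larynx, each with an SD above its mean, and the part of glial transcripts in these ratios was not tested. In Tuba1c-low neurons the log2 ratio of *Gfap* was -0.34 for ACP over ACV, inside the limit, and 0.60 for ACV over Larynx, just past it. That of *Vim* was -0.95 for ACP over Larynx, -1.84 for ACV over Larynx and 0.89 for ACP over ACV, all past the limit.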

How the data were processed

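Single Amb neurons were sequenced by Smart-seq2, and each sample is 1 neuron. The authors trimmed reads with Skewer, aligned them to mm10 with STAR 2.6.1d and deposited a table of read counts for 24029 genes, without normalization, with a target and an assigned cluster per neuron, used as given. The counting program and gene annotation are not given in the sources used here. Total counts ran from 542162 to 3292763 per neuron, and 4493 genes had no count. The study's methods state that neurons with more than 1800 counts of *Apoe* were removed, yet 39 neurons in the table (11 ACP, 28 ACV) exceeded this. A deposited table named CPM was not used, as its columns do not sum to 1000000.

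Counts were divided by each neuron's total without *Rn45s* and multiplied by 10000. Mean levels were compared as ratios with a limit of 1.5-fold over the 9782 genes with a mean of at least 0.1, without tests, as no label gives the animal. Detection is at least 1 read. Exon lengths came from GENCODE vM21, with merged exons. The 10 genes were named in full, other cytoskeleton genes past the limit with a mean of at least 1 in the higher type by size of ratio, up to 4 per class, and like genes by the 3 highest mean rho; some genes that this rule names are not reported here. The members and lists were chosen with earlier results of these data known. Alternatives are given in the closing section. The code was tested on simulated data. Python 3.11.15, numpy 2.4.6, pandas 2.3.3, scipy 1.17.1, matplotlib 3.10.9, and edgeR 4.0.16 and DESeq2 1.42.0 in R 4.3.3 for size factors only, were used.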

Additional observations from a re-analysis of the deposited data

How the results depend on the processing

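Over 10 alternative settings, *Nefh* kept its direction and stayed past 1.5-fold in all 3 pairs of types, with log2 ratios of 0.67 to 1.18 (ACP over ACV), -1.47 to -0.77 (ACP over Larynx) and -2.65 to -1.69 (ACV over Larynx). *Nefl* (ACP over ACV) passed in 9 of 10 settings, *Prph* in 10 and *Nefm*, which missed the limit as reported, in 7. Scaling by the full total with *Rn45s* put the median log2 ratio of all genes at 0.60 (ACP over Larynx) and 0.54 (ACV over Larynx), moved 12 ratios of single members by more than their SD over neurons on the log2 scale, kept the sign of 31 of 40 ratios, and put 6, 6 and 5 members past the limit in ACP, ACV and AmbCardiac against Larynx, beside 55.97%, 54.6% and 54.2% of all genes. *Nefl* (ACP over Larynx) and *Nefm* (ACV over Larynx) were then inside the limit. The *Nefh* ratio of ACV over Larynx stood at -1.77 under this scaling. With neurons of at most 50% *Rn45s* (15 Larynx neurons left), AmbCardiac against Larynx gave 4 members (37.8% of all genes). Medians in place of means gave 5 members from ACP to ACV (43.3% of all genes with a ratio). A 2-fold limit left 0 members there (9.80% of all genes) and 1, *Nefh*, in ACV against Larynx (15.7%). Other settings kept each count within 1.5 times. Ratios of geometric means, with 1 added to each level, gave 2, 3, 3 and 2 members in ACP against ACV, ACP, ACV and AmbCardiac against Larynx. Only 1.17%, 1.85%, 2.38% and 1.66% of all genes passed there, as the added 1 shrinks ratios of genes at low levels. Apart from the full total, medians and geometric means, 24.03% to 42.4% of all genes passed 1.5-fold in these settings. Tuba1c-low neurons gave 4, 3, 2 and 2 members in ACP against ACV, ACP, ACV and AmbCardiac against Larynx (36.997%, 35.2%, 40.02% and 31.9% of all genes), and Tuba1c-high neurons 2 in ACP against ACV (30.7%), both added after the data were seen. *Tuba1a* (ACV over Larynx) was then at 0.45, no longer past the limit. Among the correlations of member pairs within types, 84.4% kept their sign under the full total, 98.5% without the members in the total and 88.1% with at most 50% *Rn45s*. Of 15 orders of filament shares, 14 held per kilobase and 14 in pooled counts. The causes were not tested. No paired analysis was possible because no label gives a replicate number, mouse or plate. Thinning to the lowest total and a minimum of 1000000 counts were among the settings, and other effects of depth were not tested.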

Other observations

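A filament gene other than *Nefl* and *Nefm* was without a read in 6 neurons. *Nefh* had no read in 1 ACP and 3 ACV neurons with 755299 to 1487443 counts outside *Rn45s*, where 3 counts would make at most 0.0397 counts per 10000. All 4 were Tuba1c-high, and the lowest *Nefh* level in Tuba1c-low neurons was 0.121 in ACP and 0.0201 in ACV. They held 143.1 to 161.9 counts per 10000 of *Tuba1a*, above the median of their types, and 10.3 to 37.2 of *Prph*. The ACV neuron without *Ina* had 32.4 of *Prph* and 22.8 of *Tuba1a*, the latter near the low end of its type. The Larynx neuron without *Prph* was the shallowest of all, with 118492 counts outside *Rn45s* and 91.5% of its counts on *Rn45s*.

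Values of *Map1b* in Tuba1c-low neurons were 60.8 ± 18.8 (SD, n = 33) in ACP, 68.2 ± 28.2 (SD, n = 35) in ACV and 49.3 ± 18.3 (SD, n = 52) in Larynx. *Tubb3* showed 38.5 ± 12.7, 40.6 ± 14.01 and 34.01 ± 12.4 in the same neurons. The alpha-tubulin gene *Tuba1b* stood at 12.3, 14.1 and 11.7 counts per 10000 there, and at 17.2 and 14.3 in Tuba1c-high ACP and ACV neurons.

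*Nefh* was also lower in Tuba1c-high than in Tuba1c-low neurons of the same type, at 2.47 against 3.94 counts per 10000 in ACP and 1.52 against 2.30 in ACV. *Tuba1a* was higher, at 126.6 against 91.5 in ACP and 129.98 against 107.6 in ACV. For *Nefh* and *Tuba1a*, as for *Nefl*, *Nefm*, *Ina* and *Prph*, the difference between sets within a type was below the larger SD. These differences between sets were not tested.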
